A study of Mus musculus with 6 samples.

Results

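The calcium handling genes of the heart were followed in whole hearts of mice that overexpress prokineticin receptor 1 (PKR1). They were 10 genes chosen by name: Ryr2, Trdn, Casq2, Hrc, Atp2a2, Pln, Cacna1c, Cacnb2, Slc8a1 and Camk2d. Every non-control probe that carried the name of 1 of these genes in the scanner data was taken. This gave 29 probes of 9 genes, out of 41174 probes on the array. No probe carried the name of Cacna1c, the pore-forming subunit of the L-type calcium channel, so that gene could not be analysed here. Of the 29 probes, 24 were among the 20000 brightest probes, on which the groups were compared, and 21 were well above background on all 6 arrays by the scanner software's own test.

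The study hybridized RNA of 3 wild type (WT) hearts and 3 TG-PKR1 hearts to Agilent single-colour arrays, with 1 heart per array. All mice were males of 12 weeks. TG-PKR1 mice carry PKR1, a G protein-coupled receptor for prokineticins, under the promoter of alpha myosin heavy chain, which drives it in cardiomyocytes, the same cells that express most of the genes described here. The design asked how the heart's transcripts differ when cardiomyocytes carry more of the receptor. The tissue was whole heart, so that fewer cells of a type and less RNA per cell cannot be told apart.

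In a cardiomyocyte each beat begins when calcium enters through L-type channels and opens ryanodine receptors, which release more calcium from the sarcoplasmic reticulum (SR). The heart relaxes when a calcium pump returns calcium to the SR and an exchanger in the surface membrane carries the rest out of the cell. Proteins in the SR lumen hold calcium near the release channel, and kinases tune both release and uptake. These genes define much of the strength and timing of contraction, and they are frequently followed in models of heart failure.

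All 12 cardiomyocyte markers were well above background on all 6 arrays, and their summed level spanned 19.93 to 20.46 (log2) in WT hearts and 19.98 to 20.77 in TG-PKR1 hearts. Of 8 adipocyte markers, 7 were among the 20000 brightest probes and each averaged less in TG-PKR1 than in WT hearts, 3 of them past the threshold of an adjusted p under 0.05. Their median difference was -1.81 on the log2 scale, and the hearts of the groups overlapped for none of the 7. The summed level of the list, to which the brightest marker Fabp4 (-0.72) adds most, was 16.91 to 17.50 in WT hearts and 16.08 to 16.35 in TG-PKR1 hearts, and its part in the results below was not tested. Among the other cell type lists, all 7 brown adipocyte markers had a negative difference (median -1.39, with Ucp1 at -3.23) and 1 was called. The hearts of the groups did not overlap for 4 of them (57.1%, against 5.41% of all probes). They overlapped for Cox7a1 (-0.07), Cox8b (-0.08) and Prdm16 (-0.27). In the atrial, skeletal muscle, smooth muscle, endothelial, fibroblast, macrophage and erythroid lists 0 were called. These calls of adipocyte and brown adipocyte markers were lost with scan mode as a block, where 0 of all 20000 probes were called. They were also lost without WT heart 1 or 3, and without TG-PKR1 heart 1 or 3. The probe for Prokr1, the gene of PKR1, was not well above background on any array, so it could not check the genotype labels, and the sources used here do not say whether it lies within the transgene. The arrays of WT heart 1 and TG-PKR1 hearts 2 and 3 had an extended-range scan, whereas WT hearts 2 and 3 and TG-PKR1 heart 1 had a single scan, and WT heart 2 and TG-PKR1 heart 1 shared a slide, whose number their labels also share. Heart numbers are names only and pair no hearts.

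No calcium handling probe differed between the groups at the threshold. limma, with Benjamini-Hochberg adjustment over the 20000 probes, called 0 of the 24 probes, and the adjusted p was 1 for each. The same comparison called 0.095% of all 20000 probes, each of them lower in TG-PKR1 hearts. That share fell to 0 with scan mode as a block, under 75th percentile scaling and with the log2 values the authors deposited. No probe was called either with all probes kept, or with those well above background on 3 or more arrays. It was also 0 without WT heart 1 or 3, and without TG-PKR1 heart 1 or 3. At an unadjusted p under 0.05 there was 1 calcium handling probe, against 2.38% of all probes. The 3 values of a group lay wholly above or below those of the other for 1 of the 24 probes (4.17%), against 5.41% of all probes with a value in all 6 hearts (2.68% higher and 2.73% lower in TG-PKR1 hearts). Of the 24, 19 averaged more in TG-PKR1 than in WT hearts (79.2%), against 58.2% of all probes and 10 of 12 cardiomyocyte markers (83.3%). The split was more even under 75th percentile scaling, with 15 higher and 9 lower, and within each scan mode, with 14 higher and 10 lower. The median difference was 0.12 on the log2 scale, against 0.03 over all probes. With 3 hearts per group the smallest two-sided exact permutation p is 0.1.

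**Figure D1:**
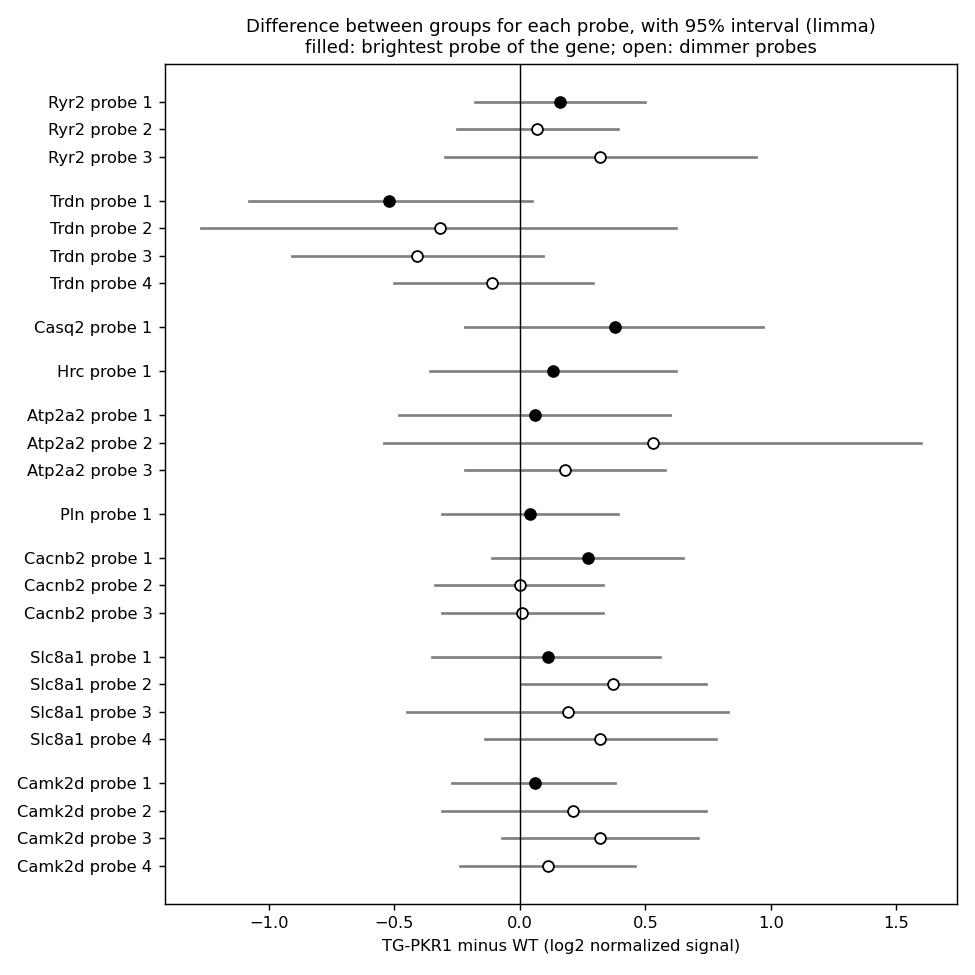
Difference between TG-PKR1 and WT hearts (log2 normalized signal, horizontal axis) for the 24 probes among the 20000 brightest, with 95% intervals from limma. 23 of the 24 intervals hold 0, and the exception is Slc8a1 probe 2, whose interval runs from 0.01 to 0.74.

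The precision of each difference sets what could have been seen. The half-width of the 95% interval had a median of 0.43 and ran from 0.32 to 1.07 on the log2 scale. 3 of the intervals reached a difference of 1 or more in size, the size of a doubling or halving. For the other 21 probes the interval ended short of this.

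Among the genes of calcium release, the ryanodine receptor Ryr2, which is the release channel of the SR, was measured by 3 probes. Its brightest probe, on chromosome 13 at 11607706 to 11607765 of mm8, gave log2 normalized signals of 12.64, 12.42 and 12.41 in WT hearts 1 to 3. The same probe gave 12.53, 12.68 and 12.75 in TG-PKR1 hearts 1 to 3. WT heart 1 lay above TG-PKR1 heart 1, so the groups overlapped, and the difference was 0.16 (SE 0.15, 95% interval -0.18 to 0.50). The other 2 probes differed by 0.07 and 0.32. The latter was -0.32 within the extended-range scans and 0.88 within the single scans, and ran from 0.16 without TG-PKR1 heart 1 to 0.56 without TG-PKR1 heart 2 or WT heart 1. All 3 Ryr2 probes averaged more in TG-PKR1 hearts, and none differed beyond the spread between hearts.

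Triadin (Trdn) anchors calsequestrin to the release channel, and at the brightest probe its mean alone was lower in TG-PKR1 hearts, whereas the other 8 genes had a positive difference. Its brightest probe, on chromosome 10 at 32889591 to 32889650, read 13.04, 13.33 and 13.28 in WT hearts and 12.22, 12.65 and 13.23 in TG-PKR1 hearts. TG-PKR1 hearts 1 and 2 lay below all WT hearts, whereas TG-PKR1 heart 3 lay within their range. The difference was -0.52 (SE 0.25, 95% interval -1.08 to 0.05, unadjusted p = 0.0682 and adjusted p = 1 by limma). Without TG-PKR1 heart 1 the difference was -0.28, and without TG-PKR1 heart 3 it was -0.78.

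The other 3 triadin probes also averaged less in TG-PKR1 hearts. The second, at 32828640 to 32828699, read 12.81, 11.80 and 12.53 in WT hearts and 11.70, 11.46 and 13.01 in TG-PKR1 hearts. Here TG-PKR1 heart 3 was the highest of all 6 hearts and TG-PKR1 heart 2 the lowest, and the difference was -0.32 (SE 0.41). It was -0.80 without TG-PKR1 heart 3, -0.03 without TG-PKR1 heart 2 and -0.11 without WT heart 1. The third, at 33165588 to 33165647, read 8.35, 8.87 and 8.76 against 7.88, 8.32 and 8.55, a difference of -0.41 (SE 0.22, unadjusted p = 0.0977 by limma). It ran from -0.58 to -0.22 over the 19 alternatives that refitted it. The dimmest differed by -0.11 and was well above background on 5 of the 6 arrays. The 4 probes thus agreed in sign, and differed in which TG-PKR1 heart was lowest. The brightest probe differed by -0.11 within the extended-range scans and by -1.08 within the single scans. The second differed by -0.58 and -0.46. The sign turned within the extended-range scans for the 2 dimmer probes, at 0.09 and 0.24, against -0.94 and -0.44 within the single scans.

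Calsequestrin 2 (Casq2), the main calcium buffer of the cardiac SR lumen, had 1 probe. Its log2 normalized signals were 13.50, 12.96 and 13.22 in WT hearts and 13.92, 13.03 and 13.85 in TG-PKR1 hearts. TG-PKR1 hearts 1 and 3 were above all WT hearts, while TG-PKR1 heart 2 was below WT hearts 1 and 3. The difference was 0.38 (SE 0.26, 95% interval -0.22 to 0.97, unadjusted p = 0.183). Leaving out 1 heart moved it from 0.22 without TG-PKR1 heart 1 to 0.66 without TG-PKR1 heart 2, with 0.24 without WT heart 2 and 0.25 without TG-PKR1 heart 3. It was -0.06 within the extended-range scans and 0.84 within the single scans.

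The histidine-rich calcium binding protein (Hrc), another protein of the SR lumen, also had 1 probe, with 15.74, 15.21 and 15.34 in WT hearts and 15.91, 15.28 and 15.49 in TG-PKR1 hearts. In both groups heart 1 was the highest, and the difference was 0.13 (SE 0.21, 95% interval -0.36 to 0.62). The sign turned without TG-PKR1 heart 1, where the difference was -0.04.

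**Figure D2:**
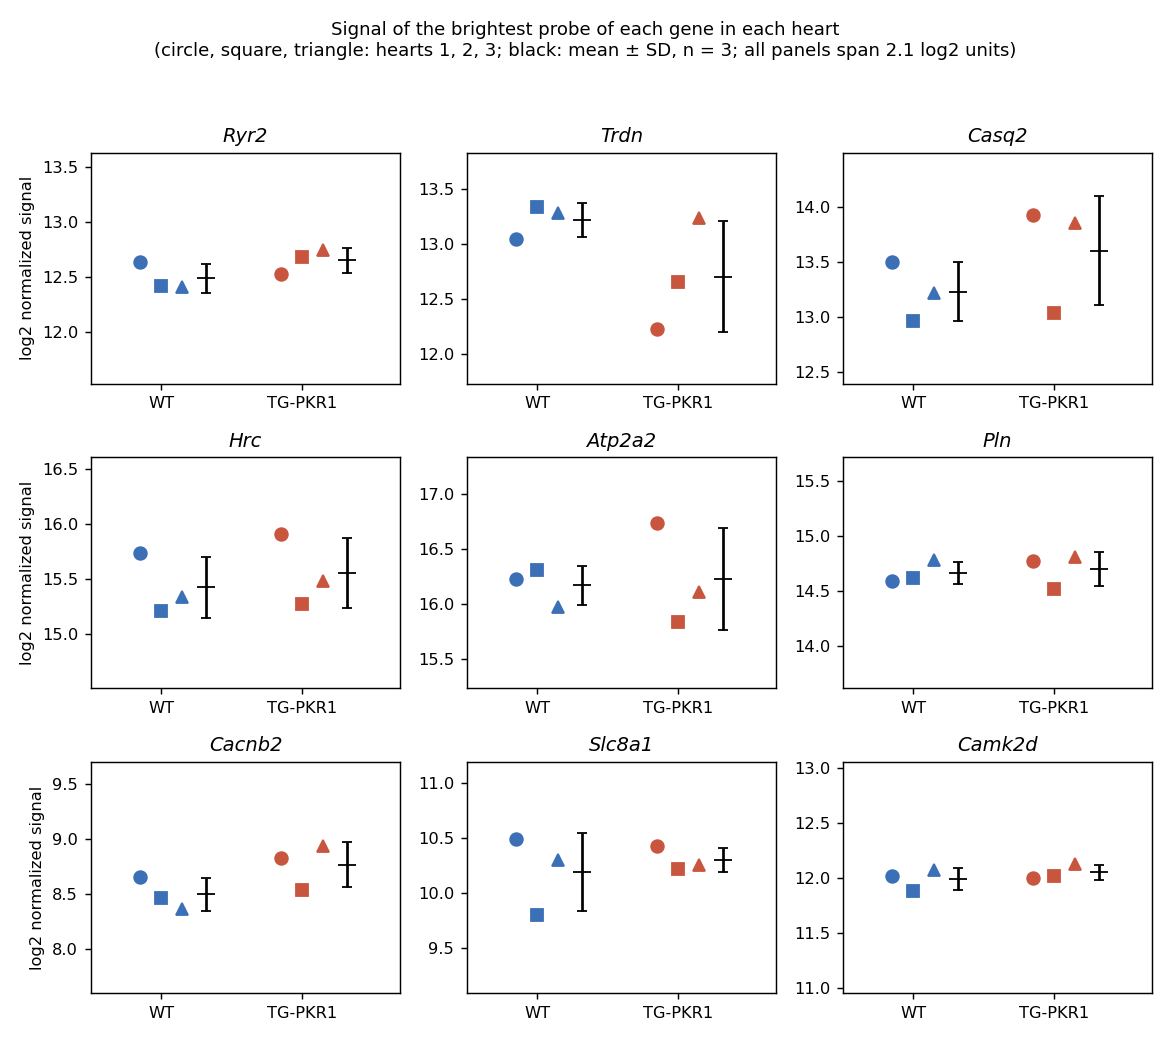
Log2 normalized signal of the brightest probe of each of the 9 genes in the 3 WT and 3 TG-PKR1 hearts (circles, squares and triangles are hearts 1, 2 and 3, and black bars are mean ± SD). The 2 groups overlap in every panel, and the panels share 1 span so that spreads can be compared, while levels cannot be compared between probes.

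Of the genes of calcium uptake, the SR calcium pump Atp2a2 (SERCA2) was read by 3 probes among the 20000 brightest. The brightest, on chromosome 5 at 122714312 to 122714371, read 16.22, 16.31 and 15.97 in WT hearts and 16.73, 15.83 and 16.11 in TG-PKR1 hearts. TG-PKR1 heart 1 was the highest of all 6 hearts and TG-PKR1 heart 2 the lowest, and the difference was 0.06 (SE 0.24, 95% interval -0.48 to 0.60). Its sign depended on single hearts, with -0.04 without WT heart 3 and -0.20 without TG-PKR1 heart 1.

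The second Atp2a2 probe, at 122721268 to 122721327, had the widest interval of the 24 probes. It read 14.85, 13.80 and 13.78 in WT hearts and 15.41, 13.60 and 15.01 in TG-PKR1 hearts. WT heart 1 and TG-PKR1 hearts 1 and 3 were high, and the other 3 hearts were low. The difference was 0.53 (SE 0.47, 95% interval -0.54 to 1.60), made up of -0.55 within the extended-range scans and 1.62 within the single scans. It was 0.16 without TG-PKR1 heart 1, 1.07 without TG-PKR1 heart 2 and 0.89 without WT heart 1. Without WT heart 3 it was 0.35. The third probe differed by 0.18, with 0.52 within the extended-range scans and -0.16 within the single scans, and ran from 0.06 without WT heart 1 to 0.29 without TG-PKR1 heart 1. Another Atp2a2 probe, outside the 20000 brightest, was not well above background on any array.

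Phospholamban (Pln), the small membrane protein that inhibits the pump until it is phosphorylated, had 1 probe. It read 14.59, 14.62 and 14.78 in WT hearts and 14.77, 14.52 and 14.81 in TG-PKR1 hearts. The hearts of the 2 groups were interleaved, and the difference was 0.04 (SE 0.15, 95% interval -0.31 to 0.39). In linear terms the interval spans 0.808 to 1.31 times the WT level.

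Calcium entry was represented by Cacnb2, the beta subunit that helps bring the L-type channel to the surface and sets its gating. Its brightest probe read 8.66, 8.47 and 8.37 in WT hearts and 8.83, 8.54 and 8.94 in TG-PKR1 hearts. TG-PKR1 hearts 1 and 3 were above all WT hearts, and TG-PKR1 heart 2 was below WT heart 1. The difference was 0.27 (SE 0.17, 95% interval -0.11 to 0.65). The other 2 Cacnb2 probes differed by 0.00 and 0.01, and both were dim, with means of 6.91 and 6.59 in WT hearts. Their raw signals in WT heart 2 were 51 and 45.5, over a median background of 39. The dimmer was well above background on 2 of the 3 WT arrays. With no background taken off, differences at such dim probes cannot be read as an unchanged level.

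Calcium extrusion rests on the sodium-calcium exchanger Slc8a1 (NCX1). Its brightest probe read 10.49, 9.80 and 10.30 in WT hearts and 10.43, 10.22 and 10.26 in TG-PKR1 hearts. The TG-PKR1 hearts lay inside the WT range, and the difference was 0.11 (SE 0.20, 95% interval -0.35 to 0.56). It was -0.09 without WT heart 2, the lowest heart.

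The second Slc8a1 probe, on chromosome 17 at 81316541 to 81316600, was the single calcium handling probe whose groups did not overlap. It read 8.25, 7.99 and 7.93 in WT hearts and 8.40, 8.30 and 8.60 in TG-PKR1 hearts. Every TG-PKR1 heart was above every WT heart. The difference was 0.37 (SE 0.16, 95% interval 0.01 to 0.74), with an unadjusted p of 0.0469, an adjusted p of 1 (limma) and an exact permutation p of 0.1. Of all probes, 2.68% were higher without overlap. With scan mode as a block the difference was 0.32 and the unadjusted p 0.116. The 2 dimmer probes differed by 0.19 and 0.32 and had overlapping hearts. Both turned sign between the scan modes, with 0.87 and 0.63 within the extended-range scans and -0.40 and -0.06 within the single scans. The former was -0.05 without TG-PKR1 heart 2 and -0.07 without WT heart 1, and the latter 0.12 without TG-PKR1 heart 2. With all 6 hearts, the 4 Slc8a1 probes in the comparison averaged more in TG-PKR1 hearts, and 3 further probes of the gene were dimmer than the 20000. Of these, 2 differed by 0.12 and 0.09 with overlapping hearts, and the last was not well above background on any array.

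The kinase Camk2d, the main cardiac isoform of calcium/calmodulin-dependent protein kinase II, phosphorylates the release channel and phospholamban. Its brightest probe, on chromosome 3 at 126836789 to 126836848, read 12.02, 11.88 and 12.07 in WT hearts and 12.00, 12.02 and 12.13 in TG-PKR1 hearts. The 6 hearts lay within a narrow span, and the difference was 0.06 (SE 0.14). The third probe read 8.44, 8.27 and 8.28 against 8.70, 8.37 and 8.88, with TG-PKR1 heart 2 below WT heart 1. Its difference was 0.32 (SE 0.17, unadjusted p = 0.0985 by limma). It ran from 0.20 to 0.46 over the 19 alternatives that refitted it. The other 2 probes differed by 0.21 and 0.11. The former was -0.30 within the extended-range scans and 0.58 within the single scans, and ran from 0.04 without WT heart 2 to 0.44 without WT heart 1. The latter was 0.27 and -0.09 in the 2 scan modes. All 4 averaged more in TG-PKR1 hearts, and a further probe, outside the 20000 brightest, was not well above background on any array.

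**Figure D3:**
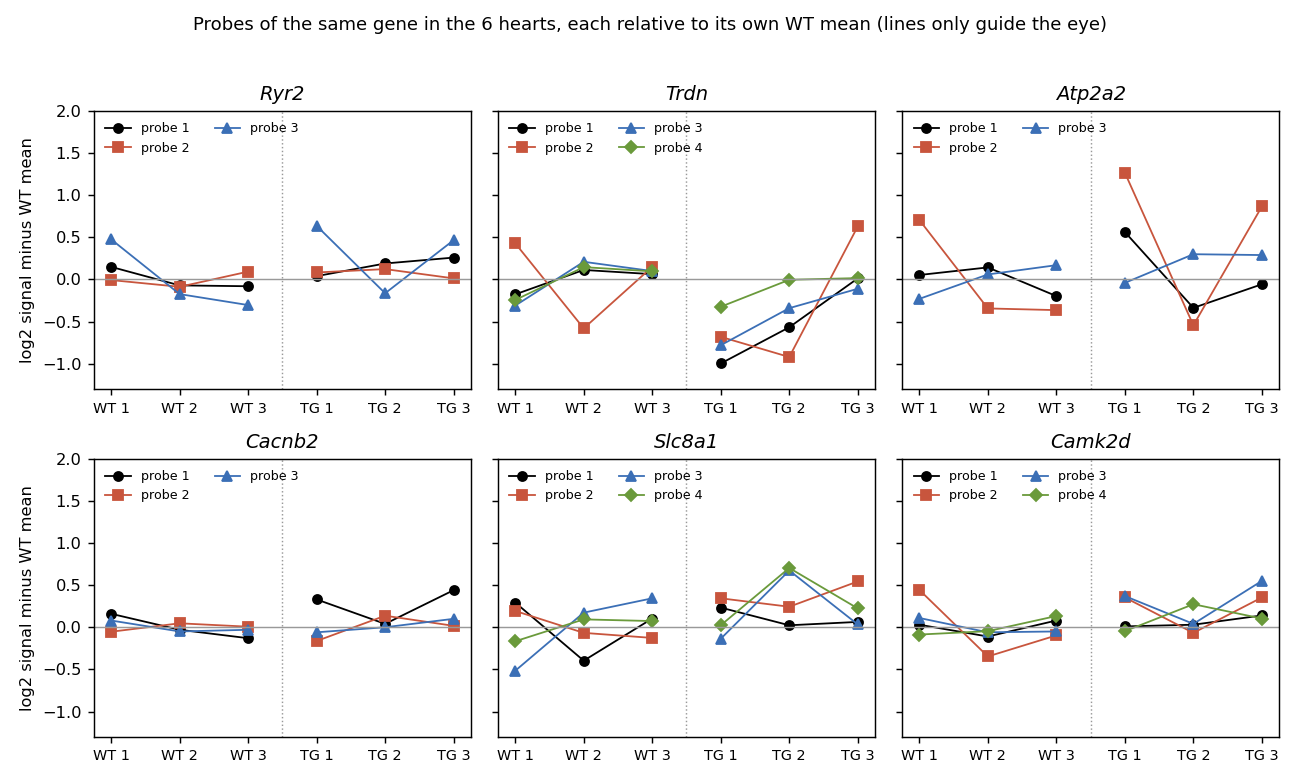
Log2 normalized signal of each probe in the 6 hearts relative to that probe's own WT mean (vertical axis), for the 6 genes with more than 1 probe among the 20000 brightest. Triadin probes 1 to 3 lie below 0 in TG-PKR1 hearts 1 and 2, and Atp2a2 probe 2 swings by over a unit between hearts of the same group.

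Probes of 1 gene agreed in the sign of the difference for 5 of these 6 genes. The exception was Cacnb2, where 1 probe lay just under 0. They agreed less in size, and the range over the probes of a gene was 0.07 to 0.32 for Ryr2, -0.52 to -0.11 for Trdn, 0.06 to 0.53 for Atp2a2, 0.11 to 0.37 for Slc8a1 and 0.06 to 0.32 for Camk2d. Heart by heart they followed each other less well, with a median Pearson correlation between probes over the 6 hearts of 0.66 for Trdn, 0.50 for Camk2d, 0.14 for Ryr2, 0.10 for Cacnb2, -0.02 for Slc8a1 and -0.46 for Atp2a2, given as a description. The probes of a gene share hearts and target, so they are not separate evidence.

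The order of the hearts changed from probe to probe. TG-PKR1 heart 3 was the highest heart for 8 of the 24 probes and the lowest for 0. WT heart 2 was the lowest for 7 and the highest for 3. The median over the 24 probes, relative to each probe's WT mean, was 0.07, -0.05 and 0.03 in WT hearts and 0.06, 0.01 and 0.14 in TG-PKR1 hearts. Signal over background (the 75th percentile of the signals over the median background) was lowest for WT heart 2 (2.08) and highest for TG-PKR1 heart 3 (14.1). It split by scan mode, with 11.4 to 14.1 on the extended-range arrays and 2.08 to 3.97 on the single-scan arrays. The part of this in the order of the hearts was not tested.

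**Figure D4:**
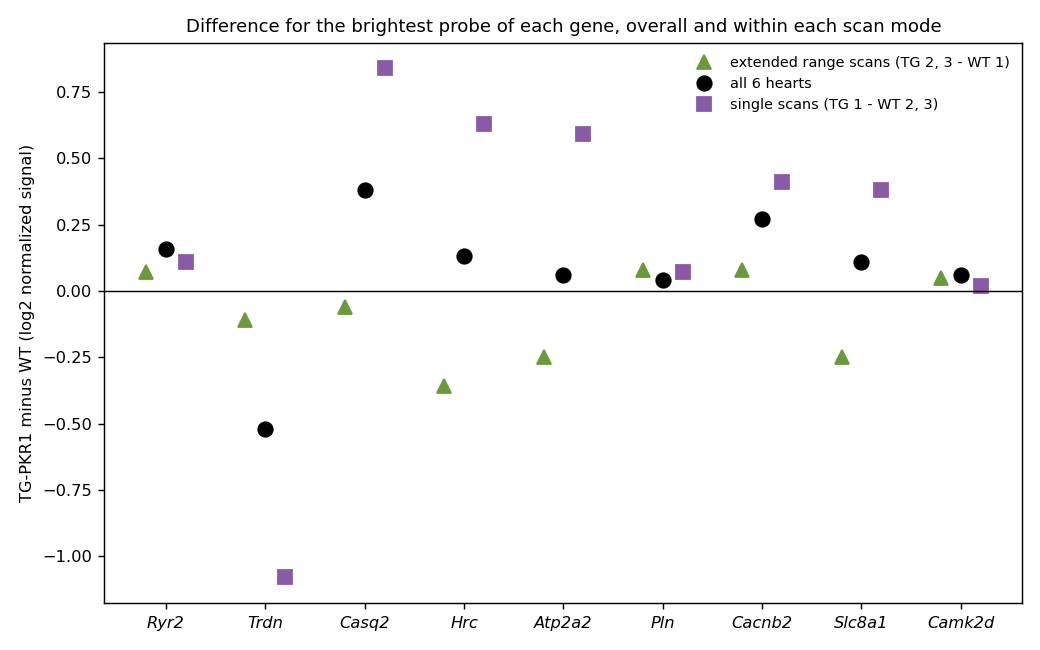
Difference between TG-PKR1 and WT hearts (log2 normalized signal, vertical axis) for the brightest probe of each gene, over all 6 hearts and within each scan mode. For Casq2, Hrc, Atp2a2 and Slc8a1 the 2 scan modes lie on opposite sides of 0.

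The sign of the difference was the same in both scan modes for 10 of the 24 probes. Among the brightest probes, Ryr2, Trdn, Pln, Cacnb2 and Camk2d kept 1 sign. Each mode held a group with 1 heart, so these values carry no test.

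The wider calcium handling apparatus was read from a list of 68 other genes, of which 62 had a probe among the 20000 brightest. limma called 0 of them, against 0.095% of all probes, and 1 had an unadjusted p under 0.05, against 2.38%. The hearts of the 2 groups did not overlap for 2 of them (3.23%, against 5.41% of all probes), Ppp1r1a and Hax1, the latter named after its values were seen, with a difference of -0.13 (SE 0.14). The median difference was 0.01, and the mean was higher in TG-PKR1 hearts for 31 and lower for 31, against a higher mean for 58.2% of all probes. By role, the medians were 0.00 for 18 genes of SR release and lumen, -0.13 for 5 of SR uptake, 0.04 for 13 of calcium entry, 0.13 for 8 of extrusion and mitochondrial calcium and 0.01 for 18 kinases, phosphatases and anchors.

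The largest difference of the list was that of Ppp1r1a, protein phosphatase inhibitor 1, which limits the removal of phosphate from phospholamban. It read 9.96, 9.56 and 9.50 in WT hearts and 8.48, 8.99 and 8.18 in TG-PKR1 hearts. All TG-PKR1 hearts were below all WT hearts, with a difference of -1.13 (SE 0.23, 95% interval -1.65 to -0.60). The unadjusted p was 0.00107 and the adjusted p 0.324 (limma), so it was not called. The difference was -1.38 within the extended-range scans and -1.05 within the single scans. A dimmer probe, outside the 20000 brightest, differed by -0.30.

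The largest positive difference was that of Rrad, a small GTPase that restrains L-type channels. It read 12.06, 10.39 and 11.07 in WT hearts and 12.10, 11.72 and 12.17 in TG-PKR1 hearts, with WT heart 1 level with the TG-PKR1 hearts. The difference was 0.82 (SE 0.37, adjusted p = 1 by limma), from -0.11 within the extended-range scans to 1.37 within the single scans, and it was 0.43 without WT heart 2 and 1.27 without WT heart 1. Junctophilin 2 (Jph2), which ties the SR to the surface membrane, differed by 0.61 and 0.47 at its 2 probes. Sarcalumenin (Srl) differed by 0.54 and Atp2a1, the pump of fast skeletal muscle, by 0.46 at its brighter probe. The dimmer Atp2a1 probe, outside the brightest probes compared, differed by 0.00, with a mean of 6.13 in both groups. It was well above background on no WT array and on 2 TG-PKR1 arrays, so this cannot be read as an unchanged level. The channel subunit Cacna2d1 differed by 0.41 and 0.50 at its 2 probes. Within the extended-range scans the sign turned for Jph2 (-0.06 and -0.53, against 1.16 and 1.42 within the single scans). It also turned for the brighter Atp2a1 probe (-0.66 against 1.57) and for the brighter Cacna2d1 probe (-0.15 against 0.59). Srl was 0.07 within the extended-range scans and 1.31 within the single scans. Leaving out each heart in turn gave 0.18 to 0.92 for Srl (without TG-PKR1 hearts 1 and 2). For the brighter Atp2a1 probe it gave 0.10 to 0.89 (the same hearts). The range was 0.38 to 0.95 for the brighter Jph2 probe (without WT heart 2 and TG-PKR1 heart 2). For the brighter Cacna2d1 probe it was 0.19 to 0.73 (without WT hearts 3 and 1). At its dimmer probe, Jph2 ran from 0.18 without TG-PKR1 heart 1 to 0.83 without WT heart 1. The dimmer Cacna2d1 probe ran from 0.25 without TG-PKR1 heart 3 to 0.71 without WT heart 1. Each of these genes had hearts that overlapped between the groups.

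On the negative side, Ppp3r1, the regulatory subunit of calcineurin, differed by -0.48 at its brightest probe and by 0.05 at the second. The second Ppp3r1 probe was dim, with a WT mean of 6.47, and was well above background on 2 of the 3 WT arrays. Cacna2d2 differed by -0.45 and -0.50 at its 2 brighter probes. Without TG-PKR1 heart 3 the brightest probes gave -0.18 for Ppp3r1 and -0.17 for Cacna2d2. Within the extended-range scans they gave -0.86 and -0.79, and within the single scans 0.03 and 0.01. The second Cacna2d2 probe gave -0.47 within the extended-range scans and -0.46 within the single scans. That probe gave -0.21 without TG-PKR1 heart 3 and -0.75 without TG-PKR1 heart 2. The beta-1 adrenergic receptor Adrb1 differed by -0.28 and 0.17 at its 2 probes. The inositol trisphosphate receptor Itpr2 differed by -0.24 and -0.13 at its 2 brighter probes. The second of these turned to 0.14 without WT heart 1 and was -0.28 without WT heart 2. At the brightest probe, leaving out single hearts gave -0.52 to -0.12 for Adrb1 and -0.42 to -0.12 for Itpr2. None had an adjusted p below 1.

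Differences of the remaining named partners were 0.32 or less in size over all 6 hearts. Sarcolipin (Sln), a pump inhibitor of atrial muscle, differed by -0.13 and 0.15 at its 2 probes. The brighter, with a WT mean of 15.41, gave 0.10 without WT heart 2. The other was dim, with a WT mean of 6.62. Junctin, which is made from the Asph gene and sits beside triadin, could not be told apart from the other products of that gene. The 4 Asph probes differed by -0.09 to 0.32. The brightest, at 0.32, gave 0.12 without WT heart 2, 0.13 without TG-PKR1 heart 3 and 0.53 without TG-PKR1 heart 2. Fkbp1b, which binds the release channel, differed by -0.08 at its brightest probe. S100a1, a calcium sensor that acts on the pump and the release channel, differed by 0.13 with a wide error (SE 0.40). It went from -0.84 within the extended-range scans to 0.99 within the single scans. Its sign depended on single hearts, with -0.30 without WT heart 2, -0.12 without TG-PKR1 heart 1 and 0.49 without WT heart 1.

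**Figure D5:**
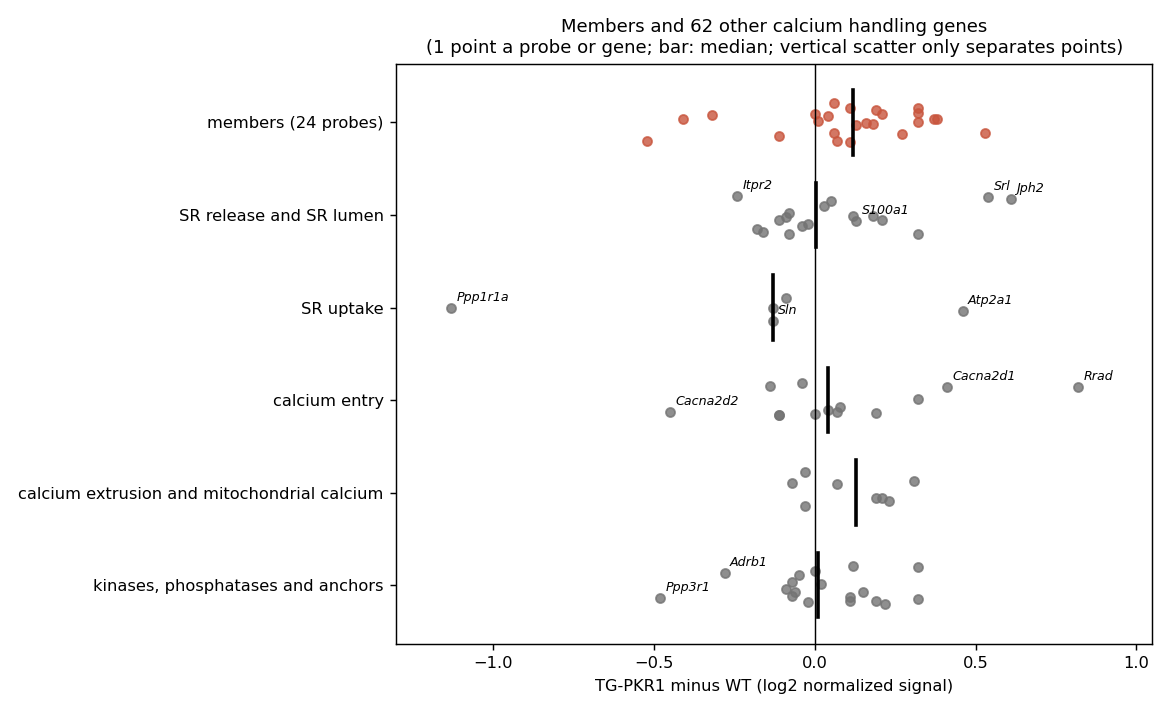
Difference between TG-PKR1 and WT hearts (log2 normalized signal, horizontal axis) for the 24 probes of the 9 genes and for 62 other calcium handling genes by role, 1 point each, with a bar at the median. Most points lie within 0.5 of 0, and Ppp1r1a at -1.13 and Rrad at 0.82 are the ends of the range.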

How the data were processed

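Hearts of 3 WT and 3 TG-PKR1 mice were measured. The authors deposited raw intensity for each spot, from Agilent Feature Extraction 9.5.1.1, with no scaling between arrays. They also deposited log2 values, for which they applied LOWESS to a median profile, merged repeated probes and filtered by signal. Here, spots of controls and outliers were removed, and the log2 median signal, with no background taken off, was fitted by loess (span 0.3, 4 iterations) to the profile of medians over the 6 hearts. Repeated spots were then averaged, and a filter left the 20000 probes of highest median. Values of dimmer probes came from a fit over all probes. Groups were compared by limma 3.58.1 in R 4.3.3. P-values were adjusted by the Benjamini-Hochberg method across the 20000 probes, at a threshold of 0.05. The procedure was run on simulated data with planted differences larger than those of the calcium handling probes and no effect of scan mode. It does not show how well differences of the size reported here are found.

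The genes and lists were chosen with earlier results of these data known. Every probe of each gene is given, and the brightest stands for the gene in counts of genes. Of the other calcium handling genes, those named were any called, the 5 largest differences in each direction among probes well above background on 6 arrays, and 8 partners or regulators, of which 1 is not reported here. Markers of 10 cell types were read from the same fit. Probe positions were read from the files, on mm8. The labels do not say how the mice were related, and p-values measure the spread between these hearts. The number of arrays limits the precision. Alternatives changed the signal column, background correction, normalization, filters, variance model, SAM in place of limma, averaging of probes, scan mode and the hearts included.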

Additional observations from a re-analysis of the deposited data

How the results depend on the processing

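The count of calcium handling probes called was 0 in all 21 alternatives that gave a count, with adjusted p-values of 0.719 or more, and that of the other calcium handling genes was 0 as well, with 0.110 or more. Over all probes the number called ran from 0 to 33. SAM called 54 probes, none of them a calcium handling probe. The median difference of the calcium handling probes was 0.06 to 0.19, with the highest under 75th percentile scaling, and 0.06 to 0.14 when each heart was left out in turn. The median of the other genes was -0.13 to 0.08. The number of calcium handling probes whose groups did not overlap ran from 1 to 9 when a heart was left out. It was 9 (37.5%, against 21.1% of all probes) without WT heart 1, 1 (4.17% against 12.3%) without WT heart 2, 3 (12.5% against 10.1%) without WT heart 3, 4 (16.7% against 13.6%) without TG-PKR1 heart 1, 5 (20.8% against 21.6%) without TG-PKR1 heart 2 and 4 (16.7% against 8.82%) without TG-PKR1 heart 3. Among the brightest probes, signs turned within the extended-range scans for Casq2 (-0.06), Hrc (-0.36), Atp2a2 (-0.25) and Slc8a1 (-0.25). With hearts left out in turn, Slc8a1 ran from -0.09 (without WT heart 2) to 0.25, Atp2a2 from -0.20 (without TG-PKR1 heart 1, and -0.04 without WT heart 3) to 0.25, Hrc from -0.04 (without TG-PKR1 heart 1) to 0.29 and Pln from -0.01 (without TG-PKR1 heart 3) to 0.13, and signs turned where negative. The cause was not tested. Trdn stayed lower in all 19 alternatives that refitted its brightest probe (-0.78 to -0.28) and within each scan mode. With the processed signal the hearts overlapped at the second Slc8a1 probe, and the probe without overlap was that of Hrc (0.21). A loess drawn against the median profile itself was chosen after seeing the data. Slide as a random block could not be fitted, with 5 slides for 6 arrays. No paired analysis was possible because the heart numbers were given in accession order, and the labels tie only WT heart 2 to TG-PKR1 heart 1, by the number of their shared slide.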
